A study of Homo sapiens with 16 samples.

Results

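The SOX and FOX genes encode 2 large families of transcription factors that set cell identity in the embryo. A total of 52 listed autosomal members, 18 SOX and 34 FOX, were taken from 19229 autosomal protein-coding genes of the GENCODE annotation on hg19, and all 52 were found. For each gene, the body with 5 kb on each side (the gene window) was examined for 2 histone marks in 16 CUT&Tag libraries of BE2C cells, a human neuroblastoma line with amplified MYCN. In CUT&Tag, an antibody to a mark tethers a transposase that cuts the DNA beside it. The marks were trimethylation of histone H3 at lysine 27 (H3K27me3) and monomethylation at lysine 4 (H3K4me1). To learn how loss of the H3K27 demethylase KDM6B affects these marks, cells that received the siRNA siKDM6B33 were compared with cells that received a control siRNA (siCtrl), both for 72 h. Separately, GSK-J4, which inhibits the KDM6 demethylases, was given at 2.5 µM for 72 h, and its control was 0.1% DMSO for the same time. Each treatment had 2 biological replicates per mark, so that 8 groups gave 4 comparisons, and the compound had controls of its own. All groups shared the same line, the knockdown rested on a single siRNA, and GSK-J4 is not selective for KDM6B within its enzyme family, which limits both as models of KDM6B loss.

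SOX proteins bind DNA through an HMG box and bend it, while FOX proteins bind through a forkhead domain, and several open compacted chromatin. SOX11 and SOX4, of the SoxC group, act in developing sympathetic neurons and are known as active genes in adrenergic neuroblastoma. Many relatives work in other tissues, such as FOXA1 and FOXA2 in endoderm, SOX17 and SOX18 in endothelium and FOXL2 in the ovary. H3K27me3 is laid down by the Polycomb complex PRC2 and accompanies gene repression, particularly over developmental regulators with CpG-rich starts. H3K4me1 marks enhancers and the flanks of promoters. Because no RNA was part of these data, no member could be called silent from them. Instead, 20 members known for roles outside the sympathetic lineage served as comparators for SOX11 and SOX4.

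The starts of 3 members are shown because they differ in the marks described here. SOX4 carried no H3K27me3 island, FOXL2 lay in H3K27me3 islands throughout and gained H3K4me1 after knockdown, and FOXN1 held no island of either mark. Each sequence is the 300 bases that precede the start of the canonical transcript, read 5′ to 3′ on the strand of the gene from GRCh37 (hg19), with CG dinucleotides in capitals.
SOX4 (chr6:21593682-21593981, plus strand): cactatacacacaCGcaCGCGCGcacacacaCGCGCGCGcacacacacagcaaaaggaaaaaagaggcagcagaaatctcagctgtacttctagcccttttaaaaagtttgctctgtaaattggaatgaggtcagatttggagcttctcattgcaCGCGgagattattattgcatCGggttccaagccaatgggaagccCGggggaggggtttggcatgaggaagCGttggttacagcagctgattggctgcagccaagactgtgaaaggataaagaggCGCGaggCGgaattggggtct
FOXL2 (chr3:138665980-138666279, minus strand): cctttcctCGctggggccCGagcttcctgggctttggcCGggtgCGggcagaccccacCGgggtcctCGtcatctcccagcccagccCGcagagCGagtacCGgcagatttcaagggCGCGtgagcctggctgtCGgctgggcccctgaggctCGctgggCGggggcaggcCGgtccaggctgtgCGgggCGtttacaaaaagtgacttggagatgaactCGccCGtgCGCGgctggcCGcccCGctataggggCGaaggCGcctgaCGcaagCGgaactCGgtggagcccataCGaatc
FOXN1 (chr17:26833066-26833365, plus strand): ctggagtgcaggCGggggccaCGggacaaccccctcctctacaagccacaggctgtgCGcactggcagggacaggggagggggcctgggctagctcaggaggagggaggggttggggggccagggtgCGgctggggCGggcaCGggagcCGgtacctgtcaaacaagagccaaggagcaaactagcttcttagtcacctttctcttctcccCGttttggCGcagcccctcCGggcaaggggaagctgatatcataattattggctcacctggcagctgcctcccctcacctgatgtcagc
These windows held 16, 29 and 10 CG dinucleotides, in the order shown. Across the 52 members the median was 25, and across all 19229 genes it was 21. Among the 18 members with more than 50% of the gene window under H3K27me3 in siCtrl, 15 (83.3%) had at least 15 CG dinucleotides in this stretch, beside 62.7% of the 547 genes with the same coverage and 64.0% of all genes. Within the family the share was 66.7% for the 18 members without H3K27me3 in siCtrl and 71.2% for all 52. Median CG counts were 26.5 for the members above 50% coverage and 25 for those without the mark. These differences were not tested.

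The authors called broad regions (islands) and narrow peaks in each library by itself, and the value per gene was the percent of the gene window that islands covered. H3K4me1 lists held 17589 to 24573 autosomal islands. H3K27me3 lists held 10469 and 10505 islands in the siCtrl libraries, 15833 and 15658 in those of siKDM6B33, 7123 and 7338 under DMSO and 16531 and 7941 under GSK-J4. GSK-J4 replicate 1 stood apart from the other libraries of its experiment. The H3K27me3 length covered was 53.4 and 53.9 Mb with siCtrl against 89.4 and 86.9 Mb after knockdown, and for H3K4me1 it was 102 and 97.7 Mb against 113 Mb in both. The lists hold no reads per region, so a longer list can reflect deeper sequencing as well as more mark, and these cannot be told apart here. As a check of the cell type, 11 adrenergic genes, among them HAND2 and GATA3, held H3K4me1 islands in both siCtrl libraries (11 of 11, median coverage 73.3%) and no H3K27me3 island (0 of 11). In the compound experiment 6 of these 11 genes held H3K27me3 islands in both DMSO libraries and 8 of 11 in both GSK-J4 libraries. The part of this difference between the experiments in the results under DMSO and GSK-J4 was not tested. Of 6 genes of the mesenchymal neuroblastoma state, 3 held H3K4me1 islands in both siCtrl libraries (median coverage 11.4%). In the same cells 4 of the 6 held H3K27me3 islands in both libraries (median 7.71%). After siKDM6B33 all 6 held H3K4me1 islands in both libraries.

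SOX11 (chr2:5832516-5841517, plus strand), a neuronal differentiation factor, lay under H3K27me3 in every library. Its islands covered 42.1% and 45.3% of the gene window with siCtrl and 34.7% and 32.6% after siKDM6B33. In the compound experiment they covered 40.0% and 34.7% under DMSO and 31.6% and 40.0% under GSK-J4. Both knockdown libraries lay below both siCtrl libraries, by 10.0 percentage points on average, whereas the compound groups overlapped. This difference did not pass the test across all genes (adjusted p = 0.132, limma), and it was -16.7 percentage points in the gene body alone and -6.55 with 10-kb flanks. With lists of equal number of islands SOX11 was called lower, beside 12.5% of genes. In siCtrl the mark formed a single island over the transcription start, from 1.9 kb upstream to 6.1 kb downstream in replicate 1 and from 2.7 kb upstream to 5.9 kb downstream in replicate 2. After knockdown it was called as separate islands of 3.8 and 2.8 kb in replicate 1 and of 3.8 and 2.4 kb in replicate 2. DMSO replicate 2 (4.4 and 2.2 kb) and GSK-J4 replicate 1 (3.8 and 2.2 kb) were split too, while the other library of each group held 1 island of 7.6 kb. The siCtrl libraries held 4 and 7 narrow H3K27me3 peaks there, and each knockdown library held 2. Under DMSO there were 1 and 2 such peaks, as few as after knockdown, and under GSK-J4 1 and 4. Among all genes, SOX11 had more H3K27me3 coverage than 96.4% and 96.7% in the siCtrl libraries.

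H3K4me1 at SOX11 rose after knockdown. No H3K4me1 island was called in either siCtrl library, while islands covered 61.0% and 45.3% after siKDM6B33 (53.2 ± 11.2%, SD, n = 2). The difference passed the test (adjusted p = 0.00661, limma). However, SOX11 entered this test only through the knockdown libraries, and 48.1% of the 13783 genes tested were called higher. In a fit over all 19229 genes, with or without islands, SOX11 was also called, beside 33.9% of genes. The knockdown H3K4me1 islands spanned 11.6 and 8.6 kb over the start. The island of knockdown replicate 2 had the same bounds as the H3K27me3 island of siCtrl replicate 2. The siCtrl libraries held 1 and 3 narrow H3K4me1 peaks there and the knockdown libraries 7 and 6, so the siCtrl libraries were not empty of signal. With DMSO, H3K4me1 islands covered 28.4% and 15.8%, and with GSK-J4 they covered 14.7% and 0%. The compound groups did not overlap, but the difference did not pass the test (adjusted p = 0.608, limma). At equal covered length, where it was -16.8 percentage points, SOX11 was called lower, beside 2.09% of genes, but it then had no island under GSK-J4 and entered the test only through the DMSO libraries. The knockdown call for SOX11 held in 11 of 14 alternative analyses, and it was lost without either siCtrl replicate and with the gene body alone, where the difference was larger, at 82.7 percentage points. With 10-kb flanks the difference was 34.8 percentage points. For a single gene, 2 libraries against 2 cannot give an exact permutation p under 0.33.

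SOX4 (chr6:21593982-21598850, plus strand), a related SoxC gene, held no H3K27me3 island in any of the 8 libraries. The nearest one was 69.0 to 70.4 kb from its start. Its H3K4me1 coverage was 6.85% and 10.9% with siCtrl (8.87 ± 2.85%, SD, n = 2) and 24.3% and 20.3% after siKDM6B33 (22.3 ± 2.85%, n = 2). This rise passed the test (adjusted p = 0.0377, limma), but the call held in only 4 of 14 alternative analyses. The difference of 13.5 percentage points was 6.73 at equal covered length and 20.9 in the gene body alone. Under DMSO the values were 6.85% and 0%, and under GSK-J4 they were 0% and 4.16%, which overlap. The siCtrl islands lay upstream, between 7.0 and 3.4 kb from the start, and both knockdown libraries kept an island there. In addition, both knockdown libraries held an island over the start, 2.2 and 2.0 kb wide.

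**Figure D1:**
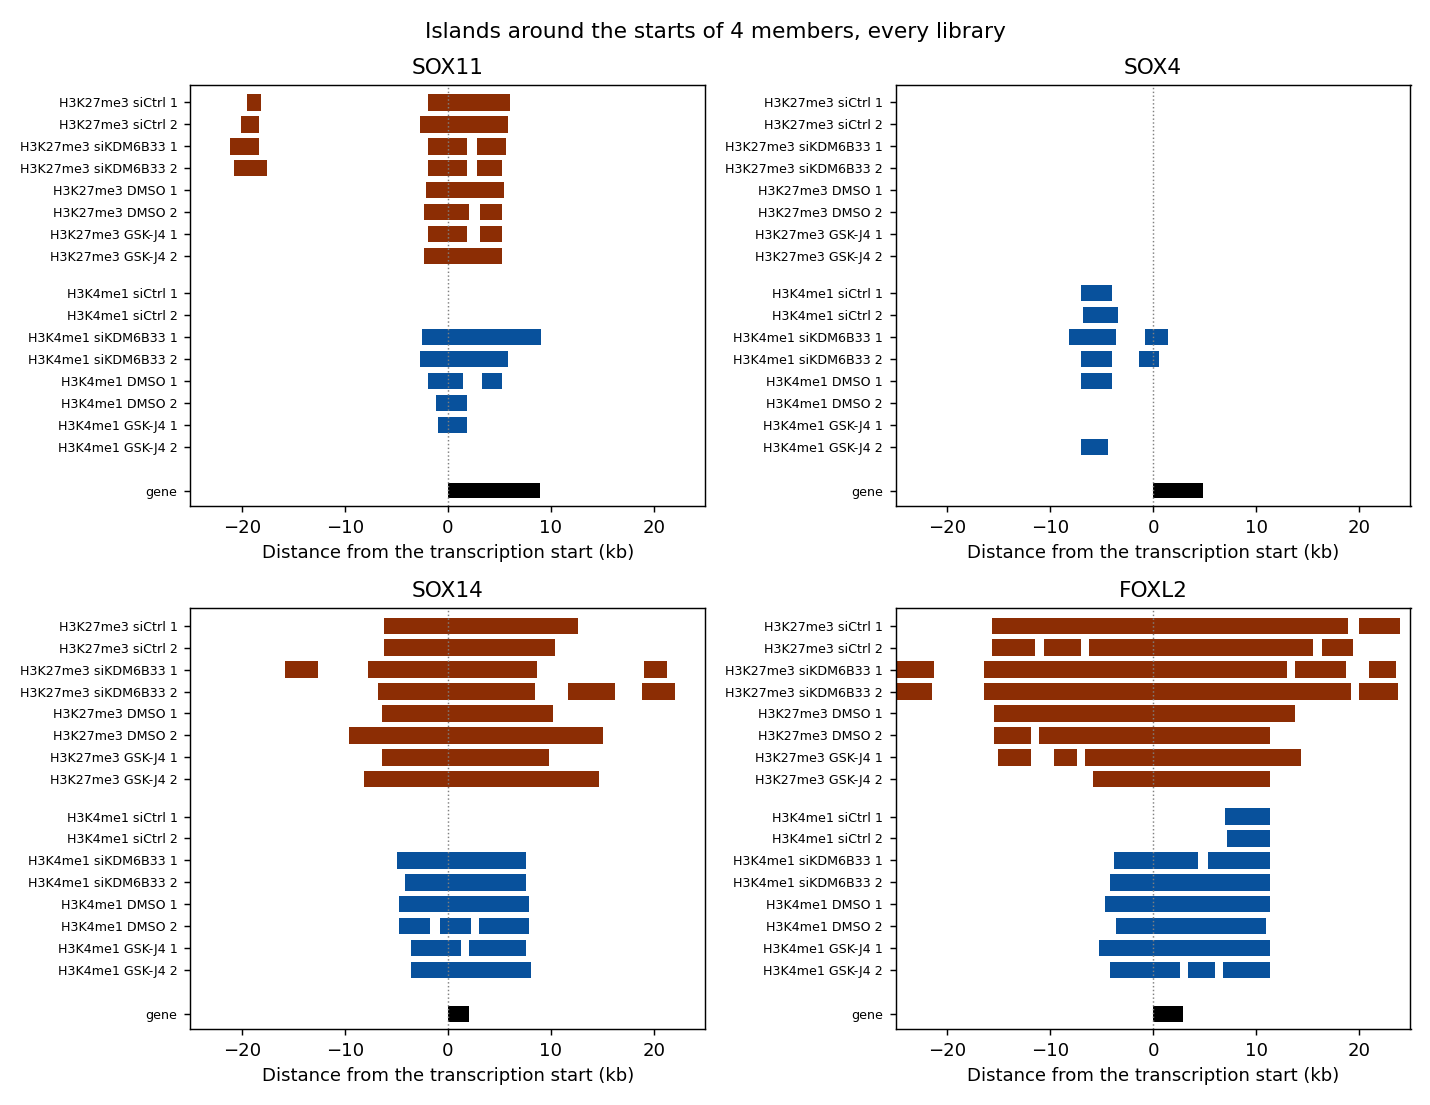
Islands of H3K27me3 (brown) and H3K4me1 (blue) in each of the 16 libraries around the transcription starts of SOX11, SOX4, SOX14 and FOXL2, as distance from the start in kb along the gene, with the gene body in black. SOX4 has no H3K27me3 island in the plotted range, and at the starts of the other members H3K4me1 islands called after siKDM6B33 overlap the H3K27me3 islands of siCtrl.

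Beside the comparators, SOX11 and SOX4 lay in the lower part of the range for H3K27me3. The comparators were chosen with earlier results of these data known, and the contrast depends on that list. Members left off it lay at both ends, such as FOXD1 (siCtrl mean 90.9%) and FOXD2 (100%), and FOXJ1 and FOXI2 (0% each). In each siCtrl library 18 of 20 comparators held an H3K27me3 island, with a median coverage of 84.5% and 85.8%. Of the 20, 13 had a higher mean than SOX11 with siCtrl and 14 after siKDM6B33, and 18 had a higher mean than SOX4. The remaining 2 comparators, FOXI1 and FOXN1, had no island of either mark in any library, and the same was true of SOX10. FOXI1 acts in the inner ear and kidney, FOXN1 in the thymus and SOX10 in glial and pigment cells, so that absence of H3K27me3 was shared by SOX4 and by members with roles elsewhere. For H3K4me1, 9 of the 20 comparators had a higher mean than SOX11 with siCtrl and 5 after siKDM6B33, and 7 and then 9 had a higher mean than SOX4. SOX4 also differed from the 9 adrenergic transcription factors in H3K4me1, since these were covered over a median of 72.0% with siCtrl (range 22.8% to 100%) and none held H3K27me3 there. SOX11 fell outside that range in both marks with siCtrl.

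Over all 16 libraries the members most like SOX11 in coverage were FOXA3, an endodermal factor, with a mean absolute difference of 10.7 percentage points, FOXB1 with 18.1 and SOX2 with 19.9. FOXA3 held H3K27me3 over 34.3% and 39.4% with siCtrl. The members most like SOX4 were FOXK1, FOXK2 and FOXN3, which are expressed in many tissues, with differences of 1.77, 2.29 and 2.74 percentage points. Their gene windows were 99148, 134950 and 504279 bp long, beside 14869 bp for SOX4. Alike percentages there stand for unlike covered lengths, so the likeness holds for percent coverage only.

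As a family, the members were heavily covered by H3K27me3. In each siCtrl library 34 of 52 members (65.4%) held an H3K27me3 island, beside 23.8% and 23.7% of all genes. At least 50% of the gene window was covered for 18 and 19 members (34.6% and 36.5%), beside 2.87% and 3.00% of all genes. This is a description with no test, since members are not replicates. Coverage of 100% in both siCtrl libraries was found for 8 members, namely SOX1, SOX8, SOX14, SOX21, FOXB2, FOXD2, FOXE1 and FOXL2. SOX1, SOX14 and SOX21 belong to the SoxB group of neural progenitor factors. Across the 8 H3K27me3 libraries, 29 members held an island in every one and 7 (SOX4, SOX10, SOX12, FOXI1, FOXJ3, FOXN1 and FOXN2) in none.

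By role, H3K27me3 coverage was as follows, with no test between the groups. All 7 mesodermal and mesenchymal FOX genes (FOXC1, FOXC2, FOXD1, FOXD2, FOXF1, FOXF2 and FOXL1) held islands in both siCtrl libraries, with median coverage of 92.5% and 94.6%. FOXC2 and FOXL1 are neighbours whose windows share 3361 bp, so these values are not fully separate. All 3 FOXA genes did as well, with medians of 80.0% and 85.5%. By contrast, islands were called in 2 of the 10 FOX genes known for broad expression, FOXO1 and FOXP1. FOXO1, an effector of insulin signalling, was covered over 3.80% and 3.97%, and FOXP1 over 0.532% and 0.407%. Their gene windows were 120975 and 639286 bp long, so a low percent can hold a whole island. At FOXO1 an H3K27me3 island lay over the start in both siCtrl libraries. In the SoxD group (SOX5, SOX6 and SOX13), long genes of neurons and cartilage among others, all 3 held islands, with a median coverage of 1.48% in each library. Of the 9 FOX genes of epithelia, gonad and other tissues, 4 held islands, with a median of 0%, and of the 3 SoxE genes 1 did, SOX8. The 5 FOX genes of neural tissue and neural crest all held islands, with a median of 17.4%.

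H3K4me1 was less widespread among the members with siCtrl, where 27 and 29 of 52 held an island (51.9% and 55.8%), beside 43.1% of all genes in both libraries. Coverage was highest for SOX18, a factor of lymphatic and blood vessels, at 100% in both siCtrl libraries. SOX8, a glial and gonadal SoxE factor, followed with 100% and 92.2%, and SOX8 was also fully covered by H3K27me3 in the same cells. FOXC1 was covered over 79.0% and 83.3%, FOXF1 over 66.2% and 82.4%, and SOX9, the chondrocyte and neural crest SoxE factor, over 67.5% and 71.4%. The values of FOXF1 overlap those of FOXC1 and of SOX9, while FOXC1 lay above SOX9 in both libraries. In all 8 H3K4me1 libraries 17 members held an island, and SOX10, SOX30, FOXI1, FOXI2 and FOXN1 held none in any.

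**Figure D2:**
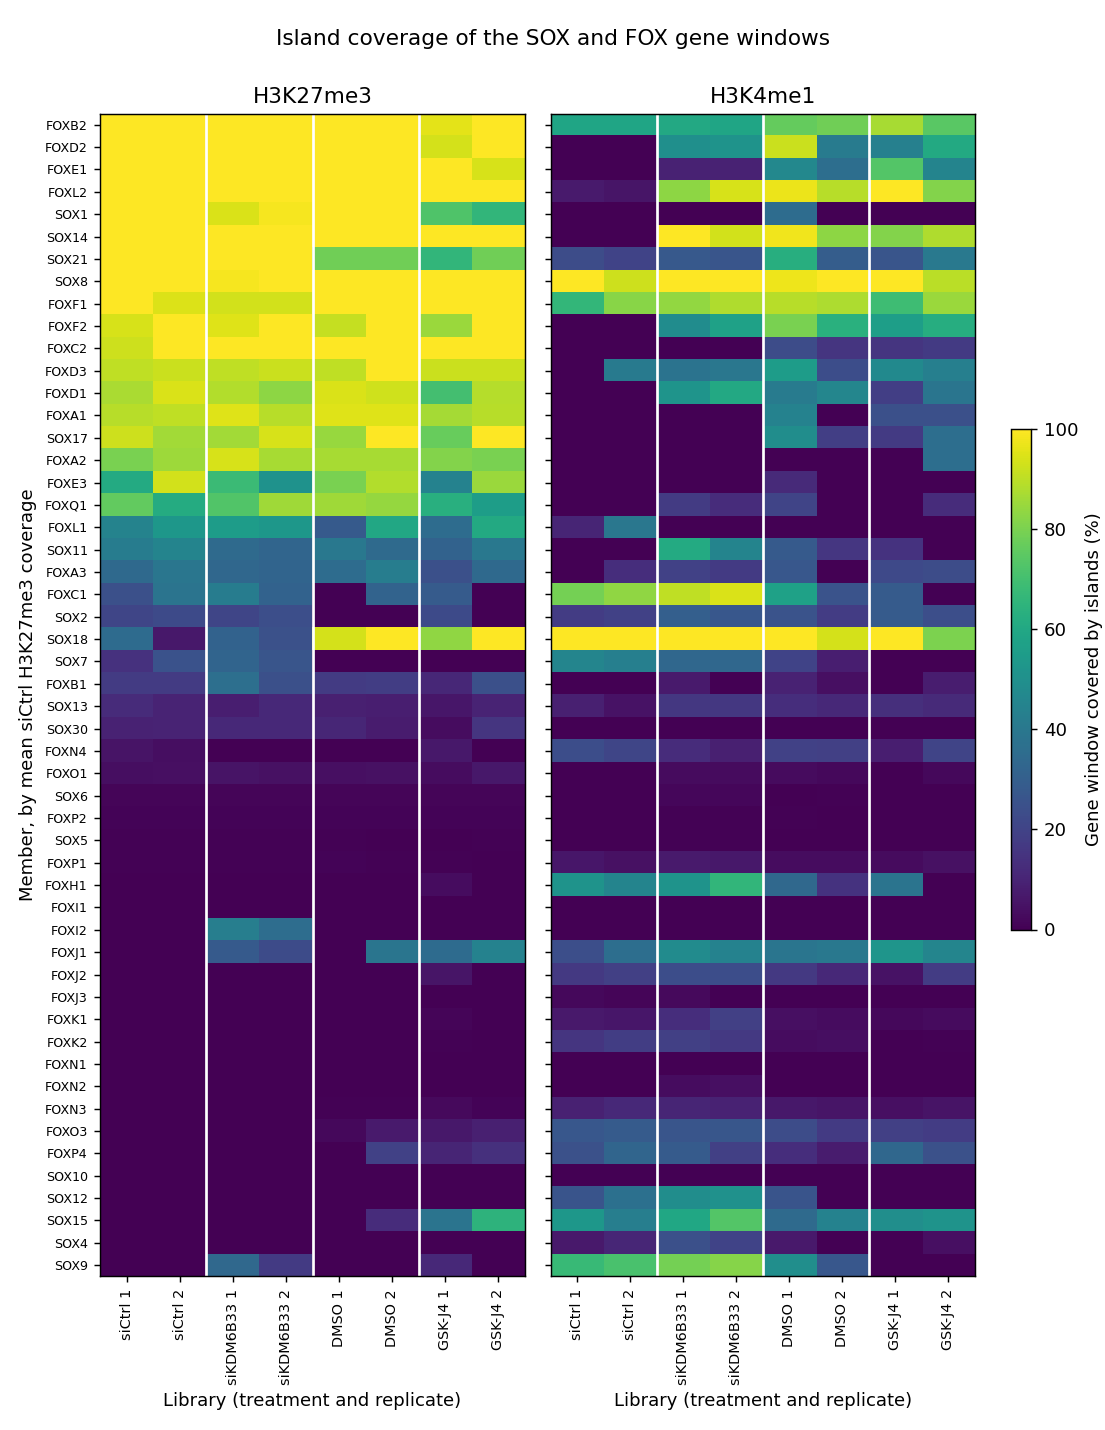
Percent of each gene window covered by islands (colour scale, 0 to 100%) for the 52 members (rows, ordered by mean siCtrl H3K27me3 coverage) in the 8 H3K27me3 and the 8 H3K4me1 libraries (columns, by treatment and replicate). The upper 18 members exceed 50% H3K27me3 coverage in the siCtrl mean, and H3K4me1 is 0% for SOX14, FOXD1, FOXD2 and FOXF2 in both siCtrl libraries but not after siKDM6B33.

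To see whether the marks met at promoters, islands over the 5′ end of each gene were counted. With siCtrl, H3K27me3 without H3K4me1 lay over the start of 20 members (38.5%), beside 10.2% of all genes, and both marks lay over 6 (11.5%), beside 2.67%. After siKDM6B33, both marks were called in all 4 libraries at 23 members (44.2%), beside 7.71% of all genes, and H3K27me3 without H3K4me1 was called at 10 (19.2%), beside 6.10%. At equal covered length, both marks were called at 17 members after siKDM6B33, beside 4.68% of all genes. Counted whatever the other mark, H3K4me1 lay over 13 member starts with siCtrl and 35 (67.3%) after siKDM6B33, in both libraries. Among all genes it rose as well, from 20.5% to 53.3%. H3K27me3 lay over 29 and then 34 (65.4%) member starts, beside 13.5% and 14.7% of all genes. Whether both marks met at more member starts than these separate rates would give was not tested. The 10 members that passed from H3K27me3 alone to both marks were SOX5, SOX11, SOX14, FOXD1, FOXD2, FOXF2, FOXL2, FOXO1, FOXP2 and FOXQ1. A further 8 members, SOX1, SOX17, SOX30, FOXA1, FOXA2, FOXC2, FOXE1 and FOXE3, had H3K27me3 alone at the start in both treatments. SOX4, SOX12, FOXK1, FOXK2, FOXN2 and FOXN3 had neither mark over the start with siCtrl and H3K4me1 alone after knockdown. The same moves were not counted over all genes, so they are not read as a trait of the members.

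In the compound experiment both marks lay over the starts of 19 members (36.5%) with DMSO and 16 (30.8%) with GSK-J4, beside 7.05% and 7.23% of all genes. Both marks were present in both treatments at 13 members, including SOX14, SOX21, FOXF2 and FOXL2, a count not made over all genes. The siCtrl and DMSO cells are both controls, yet they differed in the number of members with both marks, 6 against 19.

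**Figure D3:**
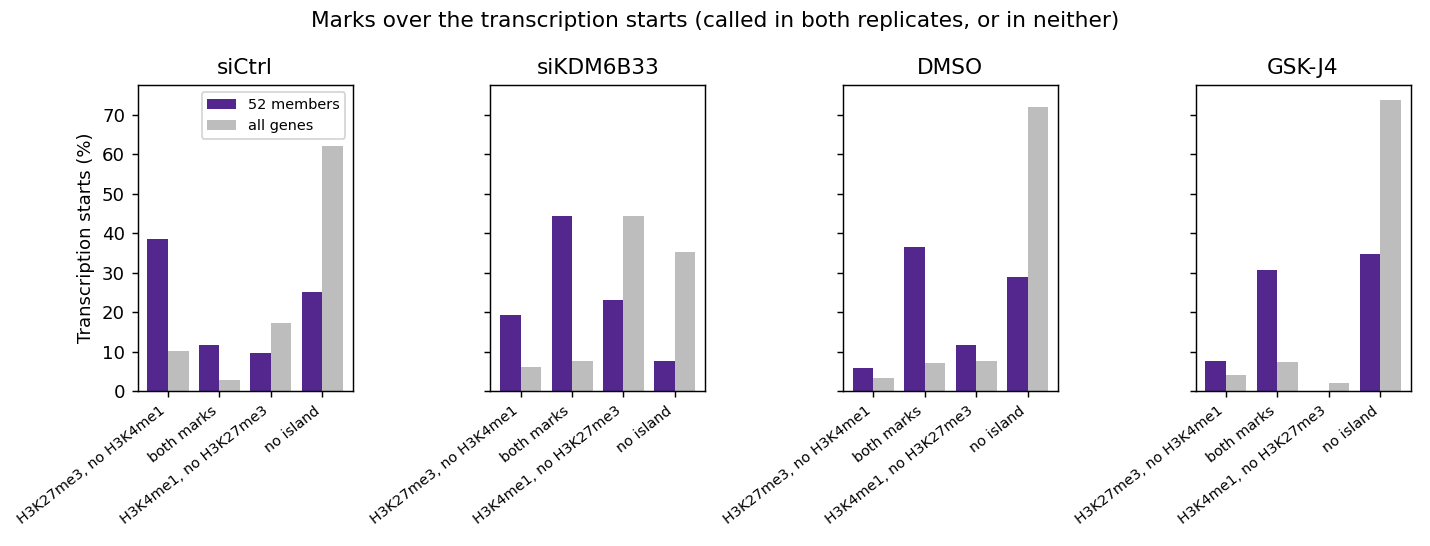
Share of transcription starts (percent, axis from 0) in each mark state, for the 52 members (purple) and all 19229 genes (grey), in the 4 treatments; a state needs the call in both replicates, so starts whose replicates differ are not shown. Both marks together lie over 11.5% of member starts with siCtrl and 44.2% after siKDM6B33, beside 2.67% and 7.71% of all genes.

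The overlap was also measured in bases of the gene windows. Of the H3K27me3 length within member windows, 15.4% and 18.7% also lay in H3K4me1 islands with siCtrl and 45.3% and 44.8% after siKDM6B33. Over all autosomes the same share was 9.08% and 8.94%, then 11.3% and 11.4%. With DMSO it was 57.8% and 42.8% in member windows and 57.7% and 50.1% over all autosomes, and with GSK-J4 53.5% and 48.1% against 67.0% and 52.4%. These shares come from lists of separate libraries and do not show that both marks sat on the same molecules.

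The knockdown was then tested gene by gene with limma over all genes with an island in at least 1 of the 4 libraries of a comparison. For H3K27me3, 37 members entered the test. Of these, 2 were called higher, beside 8.15% of all 5585 genes tested, and 1 lower, beside 1.77%. Groups did not overlap for 9 members that were higher, beside 35.6% of all genes tested, and 5 that were lower, beside 11.6%. The share of members called or apart in the higher direction was thus no larger than the background. The median difference was 0.0096 percentage points for the members tested, 0 over all 52 members and 1.03 for all genes tested. When the lists were trimmed to the same covered length, 0 members were called higher and 3 lower (SOX2, FOXB1 and FOXN4), and over all genes the split turned from 455 higher and 99 lower to 128 higher and 911 lower.

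FOXI2 (chr10:129535449-129539447, plus strand), a forkhead factor of the FOXI group, held no H3K27me3 island in either siCtrl library and islands over 42.9% and 35.7% after siKDM6B33. FOXJ1 (chr17:74132414-74137326, minus strand), the regulator of motile cilia, had 0% in both and then 28.2% and 22.8%. FOXN4, a factor of retinal and spinal interneurons, started at 5.33% and 3.87% and had no island after knockdown. All 3 called members thus entered the test only through the group in which islands were called, as did 51.4% of the genes called higher and 84.8% of those called lower. No fit without that filter could be made for H3K27me3, so these calls are given as counts and the values as a description. FOXI2 and FOXJ1 were each called in 7 of 13 alternative analyses, and both calls were lost at equal covered length and without either siCtrl replicate. The FOXN4 call held in 6 of 13 and was lost without either knockdown replicate.

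Among members whose groups were apart without passing the test, the largest rises were at SOX9, FOXB1 and SOX7. SOX9 had 0% in both siCtrl libraries and 33.8% and 16.9% after knockdown. FOXB1 had 17.4% in both and then 36.4% and 24.5%. SOX7, an endothelial SoxF factor, had 14.3% and 25.1% and then 32.3% and 26.3%. On the lower side such members were SOX11, described above, FOXA3, FOXF1 and SOX1. FOXA3 went from 34.3% and 39.4% to 33.3% and 32.3%, and FOXF1 from 100% and 94.6% to 93.3% in both. SOX1 went from 100% in both to 94.5% and 98.5%. The 8 members at full coverage in siCtrl could not score higher, since the measure stops at 100%.

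For H3K4me1, the knockdown reached many members, and many genes. Of 41 members tested, 19 were called higher, beside 48.1% of all 13783 genes tested, and 2 were called lower, beside 6.76%. Groups were apart for 27 members in the higher direction, beside 66.6% of genes tested, and for 4 in the lower direction, beside 13.9%. The count of members called thus lay near the background. Without siCtrl replicate 1 or 2, 8 and 11 members were called higher, beside 21.7% and 21.4% of genes. The median difference was 9.44 percentage points for the members tested and 4.47 for all genes tested, and over all 52 members it was 3.18. Of the 19 members called higher, 11 had no island in either siCtrl library and entered the test only through the knockdown libraries. SOX11, SOX14, FOXD1, FOXD2 and FOXF2 were among these 11, so their adjusted p values are given with that limit. All 11 were also called in the fit without a filter, where 17 members were higher, beside 33.9% of genes.

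The largest difference was at SOX14 (chr3:137483157-137485176, plus strand), a SoxB factor of interneurons. No H3K4me1 island was called there with siCtrl, and islands covered 99.6% and 93.0% after siKDM6B33 (adjusted p = 0.00393, limma). H3K27me3 covered 100% of its window in all 8 libraries. FOXL2 (chr3:138663066-138665979, minus strand), which maintains the ovary, rose from 7.24% and 5.69% to 83.1% and 94.0% (adjusted p = 0.00586, limma), again within a window fully covered by H3K27me3 throughout. In both cases the H3K4me1 islands of the knockdown spread over the start, and for FOXL2 the bases upstream of it are those printed above.

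FOXD1, a factor of kidney stroma and retina, had no H3K4me1 with siCtrl and 51.6% and 60.2% after knockdown (adjusted p = 0.00209, limma). FOXF2, a mesenchymal factor of gut and palate, had none with siCtrl and then 48.6% and 57.3% (adjusted p = 0.00225, limma). FOXD2, whose role is less well described, went from none to 49.7% and 51.3% (adjusted p = 0.000532, limma). In SOX14, FOXL2, FOXD1, FOXF2 and SOX11 alike, knockdown and siCtrl groups were far apart, and each of these calls was lost when either siCtrl replicate was left out. FOXD2 was lost only when narrow peaks replaced islands. The other members called higher (SOX2, SOX4, SOX5, SOX6, SOX9, SOX13, FOXE1, FOXJ2, FOXK1, FOXN2, FOXO1, FOXP2 and FOXQ1) differed by 0.502 to 15.01 percentage points. The calls held least often were those of SOX9, in 2 of 14 alternative analyses, and FOXJ2, in 3.

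Fewer members lost H3K4me1. SOX7 fell from 45.4% and 43.0% to 33.4% in both knockdown libraries (adjusted p = 0.0165, limma), and FOXN4 fell from 23.7% and 20.8% to 12.6% and 8.72% (adjusted p = 0.0382, limma). The H3K4me1 call held in 6 of 14 alternative analyses at SOX7 and in 9 at FOXN4, and both were lost without either knockdown replicate. FOXL1, a factor of gut mesenchyme, had 10.5% and 39.7% with siCtrl and none after knockdown, and did not pass the test (adjusted p = 0.0842, limma). With all 8 libraries of the mark in the fit FOXL1 was called lower, beside 7.1% of genes. FOXO3 had 26.98% and 28.8% and then 26.4% and 26.8% (adjusted p = 0.407, limma).

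**Figure D4:**
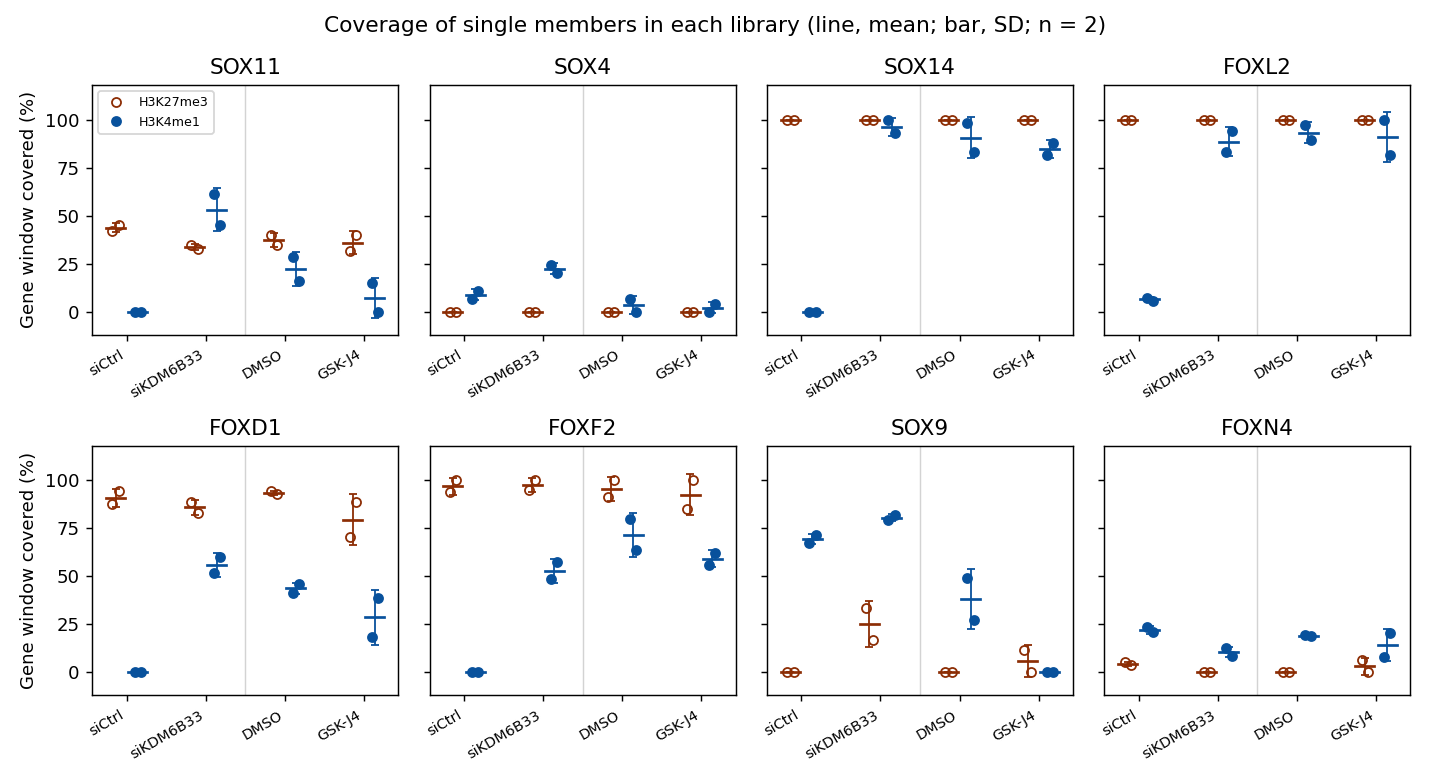
Percent of the gene window covered by islands of H3K27me3 (open brown points) and H3K4me1 (filled blue points) in each library for SOX11, SOX4, SOX14, FOXL2, FOXD1, FOXF2, SOX9 and FOXN4, with the mean (line) and SD (bar) of 2 replicates. SOX14 H3K4me1 is 0% in both siCtrl libraries and 99.6% and 93.0% after siKDM6B33, while its H3K27me3 is at 100% in all 8 libraries.

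The H3K4me1 gain was also set against the H3K27me3 that each gene held with siCtrl. Of the 18 members with more than 50% H3K27me3 coverage, 7 were called higher in H3K4me1 (38.9%), and of the 547 genes in the same class, 217 were (39.7%). The median differences were 7.50 and 7.44 percentage points. Of the 18 members without any H3K27me3 island, 5 were called higher (27.8%), beside 34.9% of the 14356 such genes. Between 10% and 50% coverage, 3 of 9 members were (33.3%), beside 30.6% of such genes. Above 0 and up to 10% coverage, 4 of 7 were (57.1%), beside 33.6%, a class that holds the long genes SOX5 and SOX6. Except in that class of 7, the members were called at rates close to those of other genes.

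**Figure D5:**
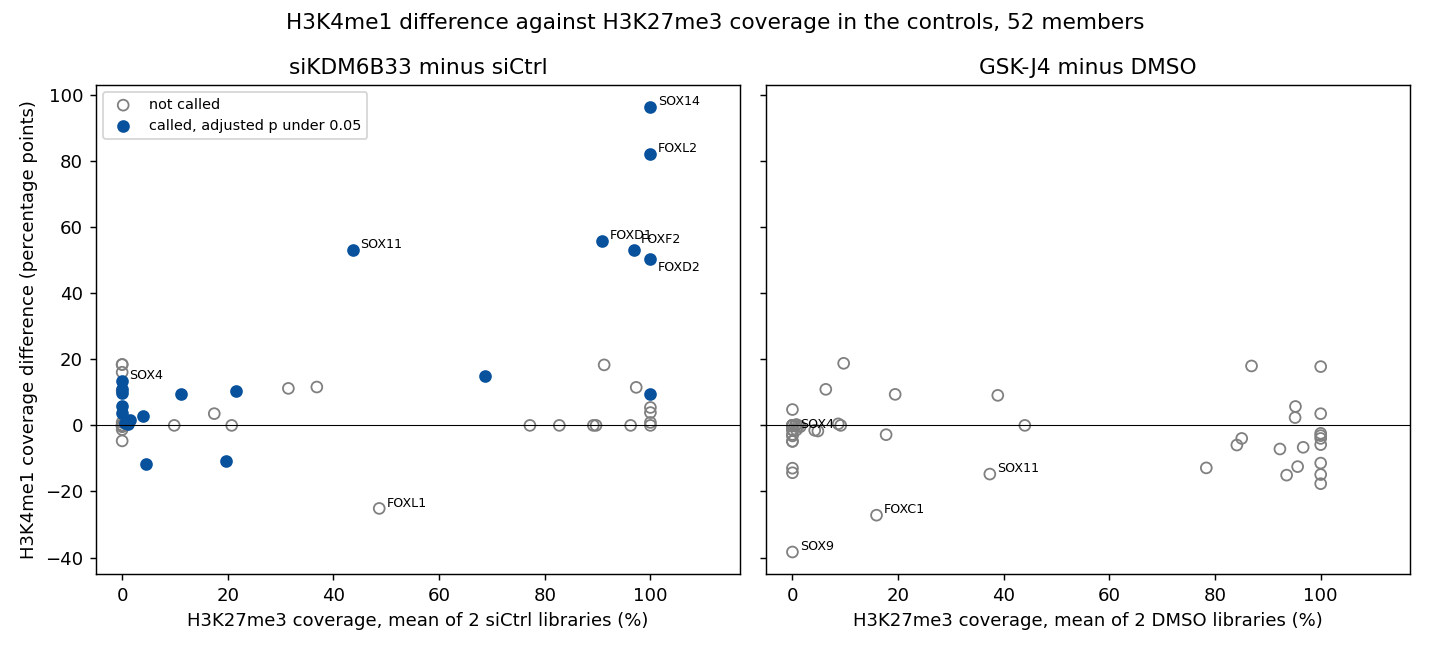
Difference in H3K4me1 coverage (percentage points, treated minus control) against H3K27me3 coverage in the control libraries (percent, mean of 2) for the 52 members, after siKDM6B33 (left) and with GSK-J4 (right), with filled points for members called by limma at an adjusted p under 0.05. The left panel holds 21 filled points, led by SOX14 and FOXL2 at full H3K27me3 coverage, and the right panel holds none.

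GSK-J4 gave no called member for either mark. For H3K27me3, 43 members were tested. Of these 0 were called higher, beside 0% of 7705 genes tested, and 0 lower, beside 0%. At an unadjusted p under 0.05 in limma, 1 member was higher and 2 were lower, beside 310 and 121 of all genes tested. Groups were apart for 2 members in the higher direction, beside 14.3% of genes tested, and for 6 in the lower direction, beside 10.5%. SOX15 had 0% and 12.6% under DMSO and 38.6% and 64.7% under GSK-J4 (adjusted p = 0.718, limma), and FOXN3 had 0.754% in both and then 2.70% and 0.992%. In the other direction SOX1 had 100% in both DMSO libraries and 72.5% and 65.7% with GSK-J4 (adjusted p = 0.285, limma). FOXQ1, a factor of epithelia, had 85.8% and 84.3% and then 63.2% and 55.8% (adjusted p = 0.619, limma). In FOXD1, FOXA3 and FOXA1 the differences were -14.0, -9.59 and -7.27 percentage points. The result depended on GSK-J4 replicate 1, which held more and narrower islands: without replicate 2, so that replicate 1 stood alone for the treatment, 8 members were called higher, beside 2290 of the 7633 genes tested, and 1 lower, beside 1.39%. Without replicate 1, 0 members were called higher, beside 7.15% of genes, and 2 lower, beside 0.952%.

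For H3K4me1 with GSK-J4, 44 members were tested and 0 were called higher, beside 1.22% of 8986 genes tested, and 0 lower, beside 1.02%. At an unadjusted p under 0.05 in limma, 1 member was higher and 3 were lower, beside 854 and 556 of all genes tested. Without DMSO replicate 2, 6 members were called lower, beside 9.98% of genes. Without DMSO replicate 1, 2 members were called higher, beside 1.86%, and 2 lower, beside 6.08%. Groups were apart for 3 members in the higher direction, beside 22.9% of genes tested, and for 10 in the lower direction, beside 17.6%. SOX9 had 49.4% and 27.3% with DMSO and no island with GSK-J4 (adjusted p = 0.0990, limma). SOX7 had 20.3% and 8.36% with DMSO and likewise none (adjusted p = 0.145, limma). FOXD1 had 41.6% and 45.9% and then 18.6% and 38.7%, and FOXF2 had 79.8% and 63.6% and then 56.1% and 62.3%. In the higher direction FOXP4 had 13.0% and 7.58% and then 33.3% and 24.8% (adjusted p = 0.191, limma), SOX15 had 34.4% and 44.5% and then 49.6% and 51.2%, and FOXJ1 had 38.9% and 40.2% and then 52.3% and 45.6%. The median difference was -2.78 percentage points for the members tested, -1.43 over all 52 members and 0 for all genes tested.

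Whether the knockdown and the compound acted differently on a member was tested by the difference of the 2 changes, in a limma fit over all 8 libraries of a mark. For H3K27me3 the changes differed for 1 of 45 members tested, FOXI2, beside 6.07% of genes, and FOXI2 entered that test only through the 2 knockdown libraries. For H3K4me1 they differed for 16 of 47 members, beside 50.4% of genes. SOX11 was among them, with 53.2 percentage points after siKDM6B33 and -14.7 with GSK-J4 (adjusted p = 0.00860, limma), and so were SOX14, FOXD1, FOXF2 and FOXL2. The starting points differed too: SOX14 had 98.0% and 83.0% H3K4me1 coverage under DMSO and 81.3% and 88.0% under GSK-J4, and FOXL2 had 97.1% and 89.3% and then 100% and 81.6%, so in the compound experiment both were already covered in the vehicle control. The experiments and their controls cannot be told apart as a source of that difference.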

How the data were processed

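BE2C cells were profiled by CUT&Tag for H3K27me3 and H3K4me1 in 16 libraries, in 8 groups of 2 biological replicates that were taken from the sample titles. Per the submitters' processing notes, the authors trimmed reads with Trim Galore 0.4.4, aligned them to hg19 with BWA 0.7.12, removed duplicates with Picard 1.65, and called islands with SICER 1.1 and narrow peaks with MACS2 2.1.1 in each library (the study's methods name a later MACS2 version). The score of the deposited island lists is a sum over 200-bp windows and grows with depth and width. The deposited narrow peak lists give, within each library, the fold (a ratio) of a peak's summit over local background, −log10 p and −log10 q (1.30 at the lowest) and a score made from the last. Neither reads per region nor the spike-in scaling of the authors was used here.

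The percent of each gene window (GENCODE 44 on GRCh37, body with 5 kb each side) covered by islands was computed with Python 3.11.15, NumPy 2.4.6 and pandas 2.3.3. Since coverage is a share of bases and not a count, its arcsine square root was tested with limma 3.58.1 (R 4.3.3, eBayes with trend and robust), in the 4 libraries of each comparison and over all autosomal protein-coding genes with an island in at least 1 of them, with Benjamini-Hochberg adjustment and a threshold of 0.05. Single values were tested with exact two-sided permutation tests (SciPy 1.17.1). The limma step was tested on simulated data. Samples with the same replicate number did not deviate together (correlations of -0.0232, 0.0636, 0.00701 and -0.0199 in the 4 comparisons), so the numbers were not used as pairs in the reported tests. Alternatives were other windows, untransformed percent, lists trimmed to equal length or equal number, wide islands, narrow peaks, all libraries of a mark in the fit, a replicate block and each replicate left out. The canonical transcript start was added after seeing the data.

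Named members were SOX11 and SOX4, in each comparison the 5 largest differences in each direction among members whose groups were apart, the 5 highest siCtrl means of each mark, members without any island, and the 3 nearest profiles to SOX11 and SOX4. The text also names, chosen after their values were seen, FOXD2, members in short lists of calls and states, and examples for the role groups. Members, comparators and lists were chosen with earlier results of these data known. Plots were drawn with matplotlib 3.10.9. Some sequences and a marker gene are not reported here.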

Additional observations from a re-analysis of the deposited data

Results flagged for a closer look

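The change after siKDM6B33 differed from the change with GSK-J4 in a limma fit over the 8 libraries of a mark for the members below, each given with its knockdown change, then its compound change, and the adjusted p of the difference. Both experiments had their own controls. Beside these counts, 6.07% of genes tested for H3K27me3 and 50.4% for H3K4me1 differed in the same test. Groups of 2 libraries are too small for a test of outlying samples.

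For H3K27me3 the only member was FOXI2 (39.3 and 0 percentage points, adjusted p = 0.00126). FOXI2 entered this test only through the 2 knockdown libraries, the only ones with an island there, so nothing is drawn from its p.

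For H3K4me1 the members with the largest knockdown changes were SOX14 (96.3 and -5.82 percentage points, adjusted p = 0.00108), FOXL2 (82.1 and -2.40 percentage points, adjusted p = 0.0220), FOXD1 (55.9 and -15.1 percentage points, adjusted p = 0.00118), SOX11 (53.2 and -14.7 percentage points, adjusted p = 0.00860), FOXF2 (53.0 and -12.5 percentage points, adjusted p = 0.000852) and FOXD2 (50.5 and -14.9 percentage points, adjusted p = 0.0361). SOX9, which held H3K4me1 with siCtrl and DMSO and none with GSK-J4, also differed (11.04 and -38.3 percentage points, adjusted p = 0.00269).

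Smaller changes that differed were those of FOXK1 (9.76 and -1.31 percentage points, adjusted p = 0.0139), FOXK2 (0.917 and -3.19 percentage points, adjusted p = 0.0418), FOXN2 (3.62 and 0 percentage points, adjusted p = 9.06e-05), FOXO1 (2.81 and -1.49 percentage points, adjusted p = 0.0333) and FOXP4 (-4.70 and 18.8 percentage points, adjusted p = 0.0420). Among the SoxD genes they were SOX5 (0.575 and -0.221 percentage points, adjusted p = 0.0122), SOX6 (1.61 and -0.383 percentage points, adjusted p = 0.0453) and SOX13 (9.44 and 0.464 percentage points, adjusted p = 0.0343). FOXN2, too, entered the test only through the 2 knockdown libraries, so nothing is drawn from its p. SOX7 was lower in both experiments and still differed on the transformed scale (-10.8 and -14.3 percentage points, adjusted p = 0.0439).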

How the results depend on the processing

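Of the recomputed values that answer a comparison, 135 equalled the reported count or stayed within 1.5 times of it, whichever members were called. The 39 others were all counts of members called. The split between higher and lower turned for H3K27me3 after siKDM6B33 at equal covered length, at equal number of islands (2 higher, 3 lower) and without siCtrl replicates 1 (0 and 1) and 2 (1 and 2). In what follows, the share of all genes tested stands in brackets. For H3K27me3 after siKDM6B33 (2 higher, 1 lower), the replicate block and narrow peak coverage gave 0 and 0 (0% in each), equal covered length 0 (2.6%) and 3 (18.5%), and all 8 libraries 1 (11.2%) and 0 (1.92%). Islands of at least 2 kb and untransformed percent gave 0 lower (1.36% and 0.931%), equal number of islands 3 lower (12.5%), SOX11 among them, and 10-kb flanks 2 lower (1.55%). Leaving out single replicates gave 0 to 4 higher (1.81% to 14.0%) and 1 to 2 lower (1.7% to 3.96%). For H3K4me1 after siKDM6B33 (19 higher, 2 lower), the gene body without flanks gave 11 (43.0%) and 1 (6.41%). It was also 1 lower with all 8 libraries (7.1%), with islands of at least 2 kb (5.88%), without a filter (4.04%) and under the replicate block (4.49%), where 15 were higher (39.6%). Leaving out single replicates gave 8 to 13 higher (21.4% to 43.0%) and 0 to 2 lower (3.04% to 4.19%). For GSK-J4, H3K27me3 gave 1 higher without flanks (0.101%), 1 lower with all 8 libraries (0.376%), and 0 to 8 higher (at most 2290 of 7633 genes) and 0 to 2 lower (at most 1.39%) without single replicates. H3K4me1 gave 2 lower with all 8 libraries (3.08%) and with equal covered length (2.09%, SOX11 and SOX9), and 0 to 2 higher (1.86% to 4.08%) and 0 to 6 lower (0.921% to 9.98%) without single replicates. Where a replicate was left out, the lone library was assumed to vary like the other group. The causes of these moves were not tested.

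The counts of member starts and of comparators above SOX11 and SOX4 moved by less than 1.5 times under every alternative run for them, the canonical start (chosen after seeing the data) included. Over all genes, starts with both marks after siKDM6B33 went from 1482 (7.71%) to 900 (4.68%) at equal covered length, where the members went from 23 to 17. The replicate block called no member with GSK-J4, and as the numbers do not pair the samples, a call lost under it is not a weaker effect. Of the SOX11 and SOX4 differences, 11 of 32 moved by more than the replicate spread. Over strict narrow peaks (−log10 q of at least 5) the knockdown differences were -0.203 (SOX11 H3K27me3), 0.855 (SOX11 H3K4me1) and 0.380 (SOX4 H3K4me1) percentage points. Fits without the filter on coverage could be made only for H3K4me1 after siKDM6B33. Coverage is limited by what the callers found in each library: a stretch under their threshold counts as 0%. At SOX11, narrow H3K4me1 peaks but no islands were called with siCtrl, and the distance from the island threshold was not measured.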

Other observations

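The controls of the 2 experiments placed some members differently. SOX18 held H3K27me3 over 34.8% and 6.63% with siCtrl and over 93.4% and 100% with DMSO, while H3K4me1 covered at least 93.4% in all 4 of these libraries. SOX2, the pluripotency and neural progenitor factor, held H3K27me3 over 20.8% and 22.4% with siCtrl and none with DMSO. SOX7 held H3K27me3 over 14.3% and 25.1% with siCtrl and none in the 4 libraries of the compound experiment. These controls differ in reagent as well as in experiment, and the differences were not tested.

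Members without islands were not free of narrow peaks. SOX10 held 0 to 2 narrow H3K4me1 peaks in each library and no narrow H3K27me3 peak, and the nearest H3K4me1 island to its start was 6.37 kb away. FOXN1 held 0 to 5 narrow H3K4me1 peaks and 0 to 3 narrow H3K27me3 peaks in each library. FOXI1 held at most 1 of either mark.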
